A study of Andrographis paniculata with 12 samples.

Results

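Cytosolic ribosomal proteins are the protein parts of the ribosomes that translate the messenger RNAs of the nucleus, and their genes were followed in leaves of Andrographis paniculata, a medicinal herb, over a methyl jasmonate (MeJA) time course. A gene was taken as a member where the description of its best Swiss-Prot hit began with 40S ribosomal protein, 60S ribosomal protein or 60S acidic ribosomal protein and its level reached 1 at 1 or more times. This left 295 of 32064 assembled genes, of which 115 were named for the 40S subunit, 167 for the 60S subunit and 13 for the acidic proteins of the 60S stalk. Another 21 genes carried such a name but stayed under a level of 1. The cutoff fell between an L13a-1 gene (TR79217|c1_g1), whose levels were 1, 0.610, 0.0673 and 0.287 at 0, 12, 24 and 48 h, and an S8 gene (TR29373|c0_g1), whose levels were 0.920, 0.994, 0.959 and 0.355. Levels of members are given below in this order of times.

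Leaves were collected at 0, 12, 24 and 48 h of MeJA, a volatile ester of jasmonic acid, a plant hormone of wounding and defence. The labels list 3 biological replicates for each of the 4 times. All 4 groups are leaves of the same species from the same induction scheme, and the 0 h group is the starting point. Neither a cultivar, nor a plant age, nor a MeJA dose is given in the sources used here. Messenger RNA was purified with magnetic beads and sequenced from strand-specific libraries. The deposited table holds 1 mean level per assembled gene and time, so no value below has an SD, a replicate number or a test. There are no untreated leaves at 12, 24 or 48 h, and the effects of MeJA and of leaf age cannot be told apart. By their labels 0, 24 and 48 h lie whole days apart, at the same hour if treated together, and only 12 h lies at another hour. In comparisons with 12 h, time of day cannot be told apart from MeJA and leaf age either. The clock hours of sampling are not given.

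A ribosome has a small 40S subunit, which holds the messenger RNA and reads its codons, and a large 60S subunit, which joins the amino acids and lets the growing protein out through a tunnel. Each subunit is built in the nucleolus from ribosomal RNA and from proteins that are needed in about equal numbers. In plants most ribosomal proteins are encoded by several gene copies, and their messenger RNAs are known to be abundant in growing tissue.

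The names covered nearly the whole ribosome. Of 80 ribosomal protein names expected in a plant, 77 were found, with 31 of 32 for the 40S subunit, 42 of 44 for the 60S subunit and 4 of 4 for the stalk. The names not found were S27a, L40 and L41. S27a and L40 are made as fusions with ubiquitin, carry ubiquitin-first descriptions and are given below with the other ribosome-bound proteins. The members had 81 names in all, the remaining 4 being P2B, L18a-like protein and a pair of proteins named as mitochondrial.

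The label was checked against the other columns of the deposited table, which did not cover all members. A predicted protein was listed for 189 of the 295 members. Its Swiss-Prot name was given for 188 and began in the same way in all 188. The best hit in TrEMBL, another protein database, was named ribosomal in 95 members and uncharacterized in 168. A Pfam domain was listed for 185 of the 295 members, and in 181 of them its text named a ribosomal protein. Of the other 4, a pair of S10-3 genes carried the S10/plectin domain and an L26-1 gene the KOW domain, both known from ribosomal proteins. The remaining one, an L37-3 gene (TR26417|c1_g1), carried a late embryogenesis abundant domain and had a highest level of 4.40. In 4 members the name itself goes against a cytosolic ribosomal protein, namely an L2 and an L6 gene named as mitochondrial and 2 genes of L18a-like protein. Best hits came from 34 species, with 163 from Arabidopsis thaliana, and in 2 members the hit was not to a land plant. Of these, the S14 gene with a hit to mouse (TR53684|c1_g1) had levels of 161, 173, 75.8 and 48.1, a course like that of most members. The L19-A gene with a hit to fission yeast (TR18314|c0_g1) had levels of 1.25, 0.977, 0 and 0.851.

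An assembled gene is a cluster of assembled transcripts, so that 1 gene of the plant may appear as several clusters, and near-identical copies may appear as 1. The 295 members came from 231 assembly components, and 51 components held at least 2 of them. Reads shared by near-identical copies may have been split between them in ways the table does not record, so values of single copies are uncertain. The unit of the deposited level, and whether it was scaled for transcript length, is not given in the sources used here, so results rest on levels of the same gene or protein at different times. Ranks of genes by level and the shares of copies are given as deposited and may include differences in transcript length.

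Ribosomal protein genes stood near their 0 h level at 12 h and were lower at 24 and 48 h. Summed over the 295 members, the level was 31997 at 0 h and 35824 at 12 h, and it was 18185 at 24 h and 14990 at 48 h. As a share of all deposited levels at that time, the sums were 3.69%, 3.68%, 1.88% and 1.61%. Both subunits and the stalk had the same course, with sums of 11373, 12830, 6233 and 5102 for the 40S names, 19372, 21641, 11224 and 9285 for the 60S names and 1252, 1353, 728 and 603 for the acidic proteins. The largest step in these sums lay between 12 and 24 h. In whole leaves, a lower level in each cell and a smaller share of cells with a high level cannot be told apart.

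**Figure D1:**
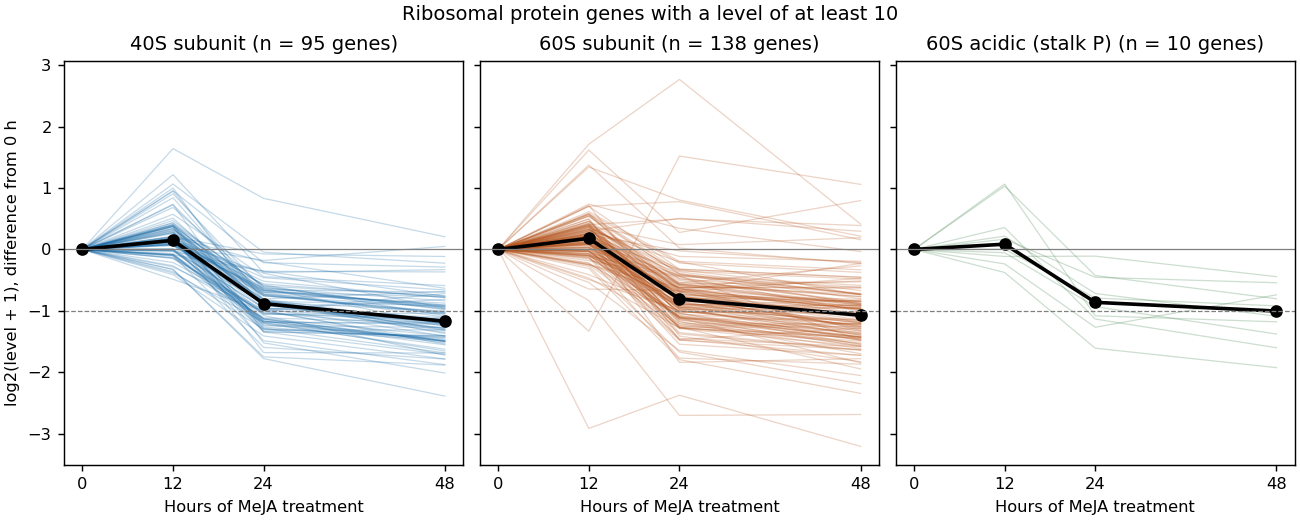
Lines show the log2(level + 1) difference from 0 h (vertical axis) against hours of MeJA (horizontal axis) for each member with a level of at least 10, in 3 panels by subunit, and the black line with dots is the median. The dashed line marks a 2-fold lower level. The medians of all 3 panels lie near 0 at 12 h and below 0 at 24 and 48 h.

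Genes whose log2(level + 1) differed by at least 1, which is 2-fold, were counted as higher or lower. This rule stands in for a test that the table does not allow, and it was also applied to all 29399 genes with a level of at least 1 so that the members' counts could be read against a background. At 12 h against 0 h, 12 of 295 members were higher and 5 were lower, while 15% of all genes were higher and 17.7% lower. The median difference of the members was 0.15, with quartiles of -0.06 and 0.34, beside 0.06 for all genes. A smaller share of members than of all genes was therefore past 2-fold at 12 h in either direction.

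At 24 h against 0 h, 94 members were lower (31.9%) and 5 were higher, against a background of 16.9% lower and 13.4% higher. Their median difference was -0.79, with quartiles of -1.11 and -0.46, while that of all genes was 0.01. The shift was spread over nearly all members, since 270 of 295 were below their 0 h level by any amount. Many lay close to the 2-fold line, with 51 members between -1 and -0.8 and 43 between -1.2 and -1, so the count depends on where the line is drawn. With a line at 1.5-fold, 201 members were lower and 10 higher, against a background of 26.8% and 23.9%. At 12 h, by the same line, 2.71% of members were lower and 9.49% higher, against 26% and 25.4% of all genes.

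At 48 h against 0 h, 153 members (51.9%) were lower and 2 were higher, with a background of 19.6% lower and 12.2% higher. The median difference was -1.04, beside -0.09 for all genes. Between 12 and 24 h, 137 members (46.4%) were lower and 3 were higher, against 11.1% and 10.6% of all genes, with a median of -0.97 beside -0.04. Between 24 and 48 h only 3 members were lower and 1 was higher, against 4.5% and 2.36% of all genes, with a median of -0.26 beside -0.10. With median-of-ratios scaling this last median was -0.15. With the line at 1.5-fold, 235 members were lower and 5 higher at 48 h, against 30.5% and 21.3% of all genes. From 12 to 24 h these counts were 231 and 5, against 22.6% and 19.1%, and from 24 to 48 h 6.78% of members were lower and 1.36% higher, against 13% and 6.35%. These comparisons share columns, in that 0 h stands in 3 of them and 12, 24 and 48 h in more than 1, and they are not independent of each other.

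**Figure D2:**
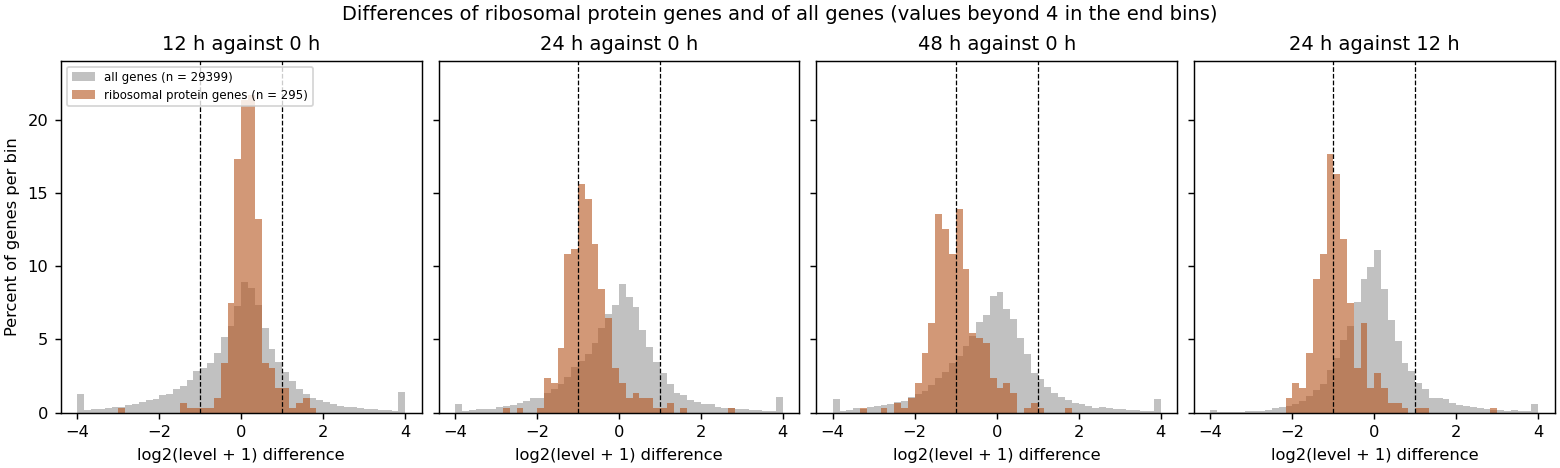
Histograms give the percent of genes per bin (vertical axis) by log2(level + 1) difference (horizontal axis) for the 295 ribosomal protein genes and for all 29399 genes, in 4 comparisons of times, with dashed lines at 2-fold. The ribosomal protein genes form a narrow peak that sits near 0 at 12 h against 0 h and left of 0 in the other 3 panels.

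The order of the times was much alike among members. Both 24 and 48 h were under both 0 and 12 h in 258 of 295 members (87.5%), compared with 26% of all genes. The reverse, with both later times above both earlier ones, was seen in 5 members, against 20.2% of all genes. As deposited, the highest level was at 12 h in 190 members (background 32.2%) and the lowest at 48 h in 241 (background 28.5%). The full order of 12, 0, 24 and 48 h from high to low, also as deposited, was found in 162 members, or 54.9%, and in 8.02% of all genes. The place of 12 h above 0 h rested on the scaling. Of 295 members, 93 were lower at 12 h than at 0 h as deposited. With equal column sums 154 were, and with median-of-ratios scaling 134.

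Members that reached a level of 10 had larger differences at 24 h than those under 10 on this scale, which compresses differences at low levels. Above 10 the median at 24 h did not grow further with level. It was -0.86 for members at 10 to 100 and -0.86 for those at 100 or more. Of the 243 members that reached a level of 10, 87 were lower and 2 higher at 24 h against 0 h, and the median was -0.86. Of all genes at that level, 17.3% were lower and 17.5% higher. At 12 h 2 such members were lower and 9 higher, against 20.2% and 18.1% of all genes at that level. At 48 h 145 were lower and 1 higher, against 20.6% and 15.7%. These members were thus above the background for lower levels at 24 and 48 h and under it at 12 h. From 12 to 24 h 129 were lower and 2 higher, against 11.9% and 14.2%, and from 24 to 48 h 2 were lower and 0 higher, against 5.34% and 1.96%. Among the 142 that reached 100, 49 were lower and 0 higher at 24 h, against 22.7% and 30.7% of all genes at that level. At 48 h 91 of them were lower and 0 higher, against 27.4% and 28%. Of the 52 members under 10, 7 (13.5%) were lower and 3 (5.77%) higher at 24 h, against 16.6% and 9.68% of all genes under 10, and the median was -0.28. The share lower among these weakly expressed members was thus not above the background.

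The 40S and 60S names were close to each other in these differences. At 24 h against 0 h the median was -0.86 for the 40S names, with 38 of 115 lower and 2 higher, and -0.75 for the 60S names, with 51 of 167 lower and 2 higher. At 48 h the medians were -1.12 and -0.97, with 67 and 80 lower and 0 and 2 higher. For the 13 acidic proteins the medians were -0.79 and -0.92, with 5 and 6 lower and 1 and 0 higher. Of all genes, 16.9% were lower and 13.4% higher at 24 h, and 19.6% and 12.2% at 48 h.

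Because copies of a protein can replace each other, levels were also summed over all copies of each protein name. For 77 cytosolic names the sum reached 10, and in 77 of 77 it was lower at 24 h and at 48 h than at 0 h. At 24 h the sums were between 40.5% (S9) and 82.8% (S29) of their 0 h value, with a median of 54.1%. At 48 h they were between 31.4% (S12) and 81.2% (L7), with a median of 44.5%. The sum was under 50% of its 0 h value in 24 names at 24 h and in 58 names at 48 h. From 12 to 24 h the sum was also lower in 77 of 77 names, with a median of 49.1% and extremes of 33.9% (S3a) and 66.4%.

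At 12 h the picture was different and rested on the scaling. The summed level was between 88.8% (L5) and 152% (S29) of 0 h, with a median of 111%, and 13 of 77 names were lower than at 0 h. When the 4 columns were first set to equal sums, 46 of 77 names were lower at 12 h, and with median-of-ratios scaling 28 were. Equal column sums move the median of all genes by -0.13 at 12 h and -0.11 at 24 h. The median of the members at 12 h against 0 h was 0.15 as deposited and 0.03 with median-of-ratios scaling but -0.012 with equal column sums, so a direction at 12 h cannot be given. At 24 h, at 48 h and from 12 to 24 h, 77 of 77 names stayed lower under each of these 3 scalings.

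**Figure D3:**
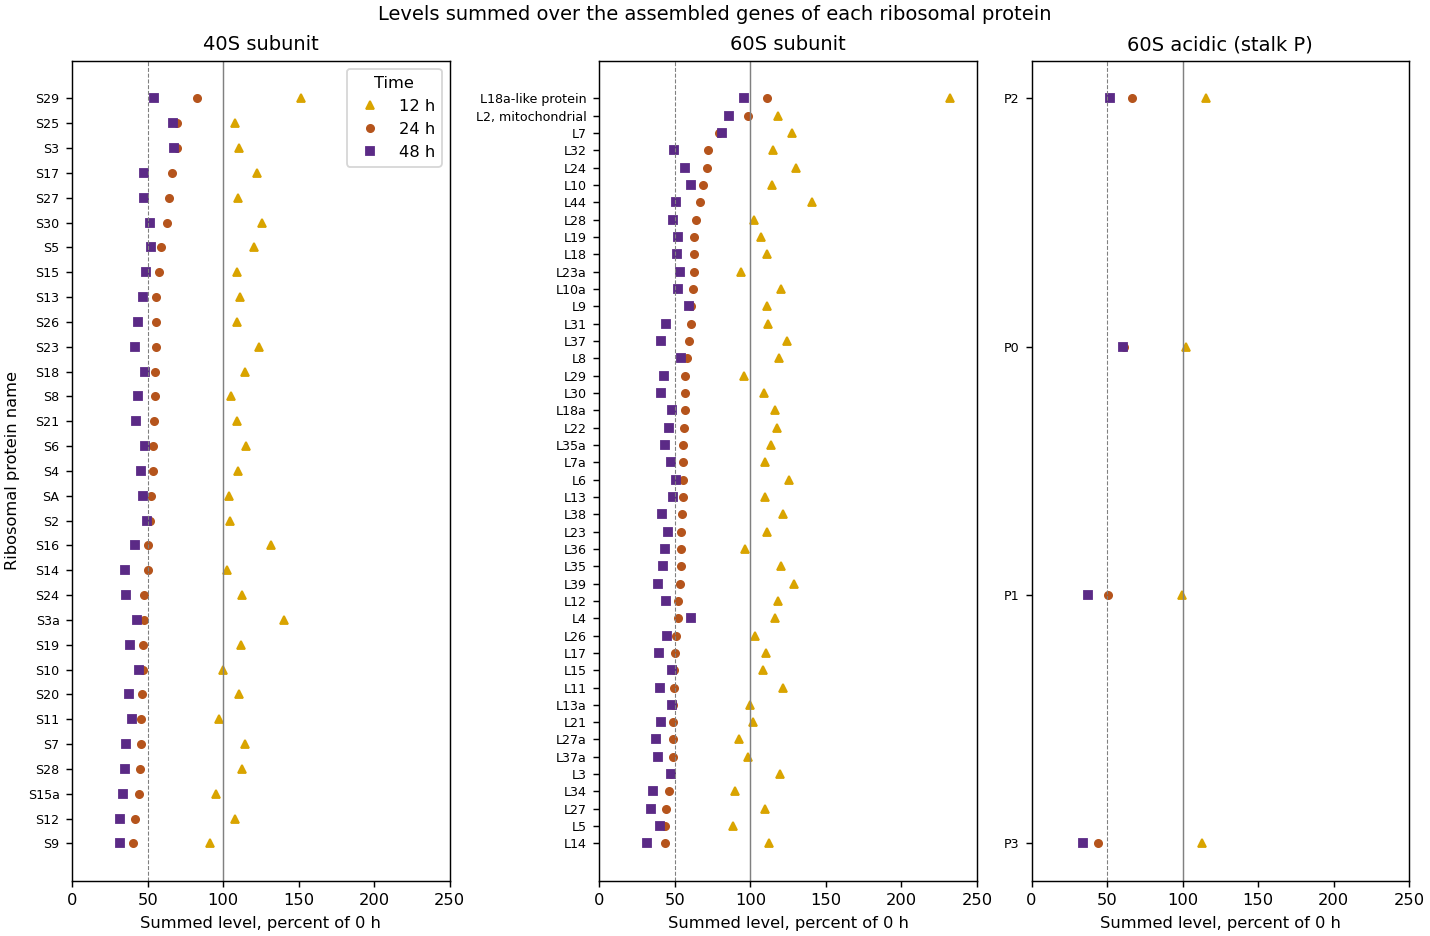
Each row is a ribosomal protein name, with its level summed over copies at 12, 24 and 48 h as a percent of 0 h (horizontal axis), in panels for the 40S subunit, the 60S subunit and the stalk, and it includes L18a-like protein and the mitochondrial L2. Names with a summed level of at least 10 are shown, which leaves out P2B. The symbols for 24 and 48 h of the 77 cytosolic names lie left of the line at 100%, from 40.5% to 82.8% at 24 h, and those for 12 h lie around it.

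The course was followed through the working parts of the ribosome, for which the copy with the highest mean level is given where it helps. In the 40S subunit, S2, S3, S5, S15, S23 and S30 line the path of the messenger RNA or the decoding site. Their 24 members summed to 60.5% of the 0 h level at 24 h, and 4 members were lower by 2-fold, a share close to the 16.9% of all genes. The main S23 gene (TR13494|c2_g6), whose protein lies at the decoding site, was at 318, 380.3, 172 and 126. A pair of S3 genes differed, since S3-3 TR33233|c0_g1 was at 187, 217, 178 and 173 and TR80985|c2_g1 at 169, 165, 80.7 and 81.7. The first of them kept nearly its 0 h level at 24 and 48 h, and the second was lower at both times, as most members were.

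S6 is the 40S protein known to be phosphorylated by S6 kinase downstream of the TOR kinase, the cell's sensor of nutrients and energy. Its 2 genes were S6-2 (TR16463|c1_g2), at 200, 265, 132 and 118, and S6 (TR56858|c0_g1), at 99.2, 78.95, 28.8 and 26.2. Their sum at 24 h was 53.8% of 0 h. S9 and S12 had the lowest percents of the 40S names. The main S9 gene, S9-2 (TR49683|c3_g3), was at 248, 224, 107 and 79.9. The main S12 gene (TR58125|c0_g1) was at 206, 227, 83.9 and 63.4. An S25-4 gene (TR29383|c0_g2) was within 2-fold of its 0 h level throughout, at 187, 196, 165 and 194. These 3 genes were chosen after their values were seen.

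Members named by the size of their difference included further 40S genes. An S15a gene (TR73832|c1_g2), whose protein lies in the body of the 40S subunit, was at 128, 102, 36.6 and 23.6, a difference of -1.78 at 24 h and -2.39 at 48 h. An S3a gene (TR83294|c1_g1) had its highest level at 12 h and was at 51.2, 85.9, 19.6 and 18.7, with -2.08 between 12 and 24 h.

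In the 60S subunit, L3, L4, L8 and L10 reach toward the centre where peptide bonds are formed. Their 17 members summed to 61.8% of 0 h at 24 h. The main L3 gene (TR33458|c0_g1) was at 142, 163, 69.5 and 69.99, and the main L4-1 gene (TR33511|c0_g1) at 75.3, 81.04, 46.3 and 54.2. L5 and L11 bind the 5S ribosomal RNA and join the subunit together with it, and their 10 members summed to 46.0%, the lowest of the 6 roles compared. The main L11-2 gene (TR80904|c0_g1) was at 98.1, 135, 60.7 and 49.8. The L11-1 gene TR82580|c0_g1 made up 50.1% of L11 at 0 h and 36.1% at 24 h, with a difference of -1.47 at 24 h.

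The proteins around the exit of the nascent chain tunnel, L17, L19, L23a, L26, L31, L35 and L39, summed over 24 members to 58.7% of 0 h at 24 h. They include the members with the highest deposited levels, L31 (TR20682|c0_g1) at 663, 705, 415 and 306 and L19-1 (TR35011|c3_g1) at 577, 552, 339 and 274. L19-2 (TR28388|c1_g1) was at 408, 511, 282 and 239. In all 3 genes both late values lay under both early ones. The main L26-1 gene (TR77753|c0_g1) was at 171, 176, 87.4 and 76.3, and L39-3 (TR72020|c0_g1), whose protein lines the tunnel, at 197, 254, 86.7 and 59.99.

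Among the other members with the highest levels, most had the same course. L38 (TR79224|c2_g1) was at 573, 635, 259 and 207, and L36-2 (TR49494|c1_g1) was at 516, 468, 250.2 and 192. L35a-3 (TR26144|c0_g4) was at 423, 493, 236 and 167. At 24 h these 3 genes were at 45.2%, 48.4% and 55.7% of their 0 h level. L23 (TR45562|c3_g1), on the face between the subunits, was at 416, 498, 187 and 143. L28-1 (TR22020|c0_g1) was at 381, 449, 269 and 211, and L32-1 (TR47007|c0_g2) at 413, 515, 359 and 247. The remaining one differed from these, as L7-4 (TR80755|c3_g2) was at 330.4, 432, 349 and 377, with differences of 0.08 at 24 h and 0.19 at 48 h.

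The stalk is the flexible arm of the 60S subunit that calls in the elongation factors. P0 forms its foot, pairs of P1 and P2 form the arm, and P3 is a form of P1 known only from plants. Together with L12, which lies at the base, the 15 members of this role summed to 57.3% of 0 h at 24 h. The main P2 gene (TR44362|c0_g2) was at 330.4, 384, 201 and 155 and the main P1 gene (TR15739|c0_g2) at 267, 257, 139.6 and 102. The main P0 gene (TR32443|c3_g3) was at 139.8, 157, 102 and 95.7, and P3-2 (TR50721|c0_g1) was at 135, 104, 43.7 and 34.9. In these 4 genes, too, both late values were under both early ones.

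The other stalk genes at a level of 10 or more were less alike. The P0 gene TR51161|c0_g2 was at 115, 115, 66.1 and 60.4, and P0-2 (TR71329|c0_g1) was at 61.1, 51.7, 24.8 and 36.2, with its lowest value at 24 h. A minor P1 gene (TR35060|c0_g1) was at 33.4, 42.99, 14.7 and 10.3. A minor P2 gene (TR84372|c1_g1) kept nearly the same level at 0, 12 and 24 h, at 92.7, 85.5, 85.8 and 67.9. Another P2 gene (TR18309|c0_g1) and P3-1 (TR79457|c0_g1) peaked at 12 h. The former was at 18.7, 40.1, 8.30 and 7.69 and had the most negative difference of all named members between 12 and 24 h, at -2.14. The latter was at 52.2, 108, 38.7 and 29.5. The main L12 gene (TR67043|c0_g3) was at 80.98, 98.1, 47.2 and 38.7. P2B, with 1 gene, was the only name higher at 24 h than at 0 h among the cytosolic ones, at levels of 0.272, 1.21, 1.86 and 1.38 that never reached 10.

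Copies of the same protein were mostly alike. In 76 names at least 2 copies reached a level of 10, and the spread of their log2 differences at 24 h against 0 h, from the lowest to the highest copy, had a median of 0.61. It was under 1 in 61 of the 76 names and ranged from 0.01 to 4.05. The widest spreads were in L23a, at 4.05, in L9, at 2.41, and in L5, at 2.09.

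In L23a, which sits at the tunnel exit and binds the signal recognition particle, the copy TR75420|c0_g1 was at 1.31, 6.58, 14.7 and 2.08, a difference of 2.77 at 24 h. The lowest copy, TR67023|c1_g1, was at 70.8, 81.1, 28.6 and 24.5, or -1.28. A further copy, TR12971|c0_g2, was lower at 12 and 24 h and closer to its 0 h level at 48 h, at 32.6, 20.5, 20.1 and 27.7. The first copy rests on small levels at 0 and 48 h.

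In L9, a protein of the 60S subunit, both extreme copies came from 1 assembly component. TR13359|c0_g1 was at 2.87, 0.536, 10.1 and 7.05 and TR13359|c0_g2 at 162, 175, 86.7 and 85.5. The first was the smaller by far, and it was lowest at 12 h and highest at 24 h. In L5, TR59191|c2_g3 was at 81.8, 45.6, 11.7 and 11.9 and TR59191|c1_g1 at 29.1, 2.995, 4.81 and 2.26. Both were already lower at 12 h, by 0.83 and 2.91 on the log2 scale as deposited, and they had the most negative differences of the named members at 24 and 48 h. The highest L5 copy, TR15751|c0_g3, was at 144, 173, 93.9 and 92.9, near the course of most members.

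Some copies took a larger share of their protein's summed level at the later times. L7-4 TR80755|c3_g2 made up 34.6%, 35.4%, 46.3% and 48.6% of L7 at 0, 12, 24 and 48 h. The minor L38 copy TR35489|c0_g1, whose levels were 51.995, 85.2, 89.9 and 58.1, made up 7.33%, 9.91%, 23.2% and 19.6% of L38. The S29 copy TR58486|c0_g1 was at 67.02, 211, 120.02 and 77.5 and made up 15.6%, 32.5%, 33.8% and 33.2% of S29, a small zinc-binding protein of the 40S head. Its partner TR45450|c1_g2 was at 358, 433, 230.1 and 153. S29 had the highest percent of 0 h among the 40S names at 24 h, and of its 2 copies with a level of at least 10 this was the one above its 0 h level.

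L10 had a main copy, TR14131|c3_g3, at 228, 291, 182 and 166, and a smaller one, TR82917|c0_g1, at 17.5, 45.98, 31.4 and 20.5, which made up 2.31%, 5.31%, 6.05% and 4.49% of L10. The copy TR39884|c0_g1 was highest at 12 h, at 3.07, 11.5, 3.93 and 6.06. A minor L23 copy, TR40013|c0_g5, was at 6.77, 8.56, 10.04 and 8.53. These 3 minor copies were above their 0 h level at each later time, while the main L10 copy was under it at 24 and 48 h.

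**Figure D4:**
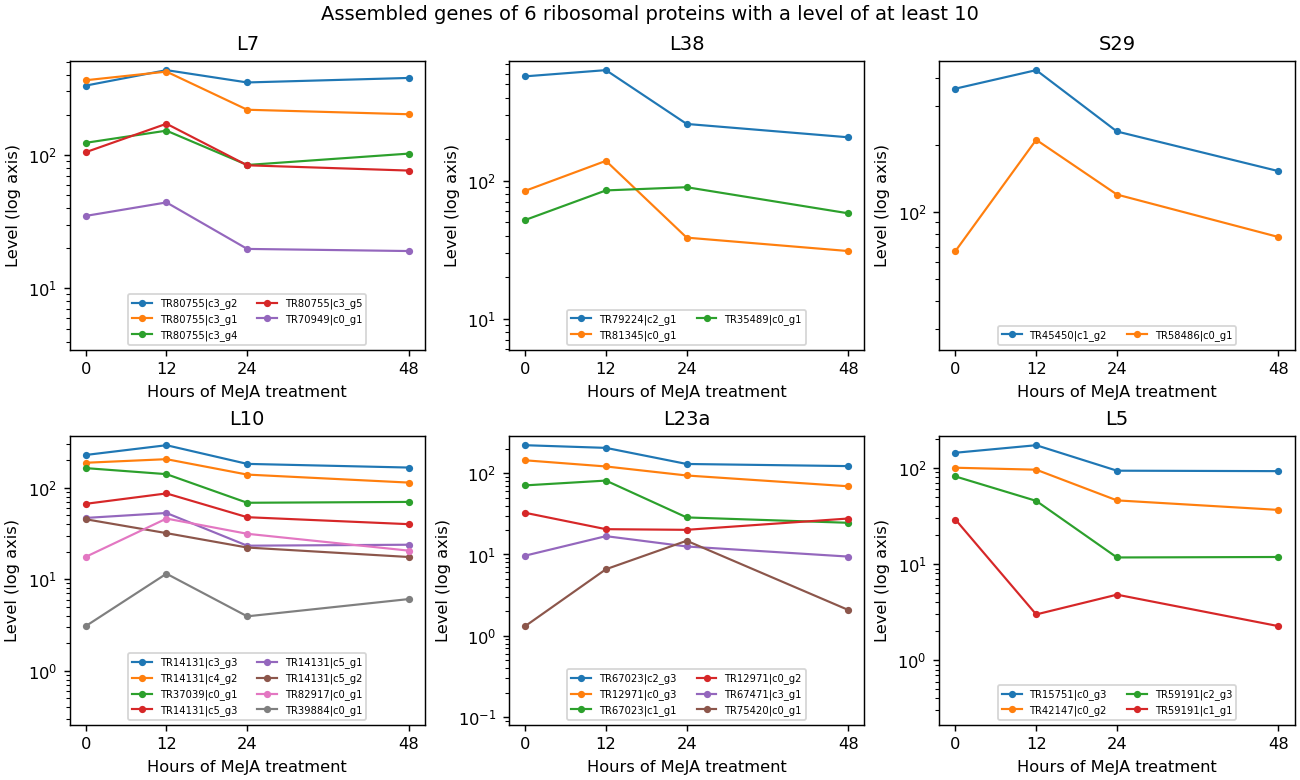
Deposited level (vertical axis, log scale) of each assembled gene with a level of at least 10 is plotted against hours of MeJA for L7, L38, S29, L10, L23a and L5. Levels at both 24 and 48 h are under the 0 h level in 4 of 5 copies of L7, 2 of 3 of L38, 1 of 2 of S29, 6 of 8 of L10, 4 of 6 of L23a and 4 of 4 of L5, while copies such as the L38 gene TR35489|c0_g1 at 51.995, 85.2, 89.9 and 58.1 lie above their 0 h level.

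On the lower side, L15-2 (TR81337|c0_g1), of the 60S core, was at 44.8, 51.96, 11.8 and 12.4. The L32-1 gene TR26756|c0_g2 was at 130.2, 105, 36.8 and 24.9, and L18a-2 (TR23510|c0_g1) at 92.2, 76.01, 28.3 and 19.5. An L34 gene (TR60251|c0_g2) was at 137, 94.2, 43.2 and 32.3. These 4 genes had differences at 24 h of -1.84, -1.79, -1.67 and -1.65. An L44 gene (TR85785|c0_g1) was lower mainly between 24 and 48 h, at 19.8, 18.4, 14.4 and 6.49.

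The 4 members whose names go against the label differed from 0 h by less than 2-fold at 24 and 48 h. The mitochondrial L2 gene (TR43328|c0_g1) was at 31.5, 37.2, 30.9 and 26.99, and the mitochondrial L6 gene (TR20917|c0_g1) at 1.10, 3.42, 0.860 and 1.22. Of the L18a-like genes, TR58512|c2_g1 was at 84.01, 219, 85.3 and 71.4, with its peak at 12 h. The other, TR72439|c0_g1, was at 24.8, 33.2, 35.4 and 32.8 and had all later values above 0 h.

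Genes that work with cytosolic ribosomes were counted by the same rule in lists built from name patterns, with medians on the scale as deposited. The tRNA ligase pattern does not set cytosolic and organelle enzymes apart. Their counts can be read against the shares of all genes, which were 15% higher and 17.7% lower at 12 h, 13.4% and 16.9% at 24 h, and 10.6% and 11.1% from 12 to 24 h. Ribosome biogenesis factors, which cut, modify and fold ribosomal RNA in the nucleolus, had a median of 0.34 at 12 h over 69 genes, with 4 higher and 0 lower. At 24 h against 0 h their median was -0.30, with 1 higher and 4 lower, and from 12 to 24 h it was -0.60, with 16 lower and 1 higher. NOP10-like (TR15424|c0_g1), a subunit of the particle that makes pseudouridine, was at 62.3, 74.7, 45.5 and 40.4. NOP56 (TR37399|c0_g2), of the particle that methylates ribosomal RNA, was at 23.3, 23.3, 5.10 and 2.84, and U3-associated protein 4 (TR22026|c0_g1) at 10.8, 8.92, 4.51 and 1.21. The best hits of NOP56 and U3-associated protein 4 were to human and to fission yeast, not to land plants. After 12 h the median differences of this list were smaller than those of the ribosomal proteins.

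RNA polymerase I, which transcribes the large ribosomal RNAs, had 7 genes and a median of 0.63 at 12 h, 0.06 at 24 h and -0.58 from 12 to 24 h. The counts were 2 higher and 0 lower at 12 h, 2 and 0 at 24 h, and 1 and 1 from 12 to 24 h. A gene of its largest subunit (TR63952|c0_g1) was listed at 0 at 0 h and was at 9.39, 31.3 and 16.1 at the later times. Another one (TR77755|c1_g2) was at 6.04, 11.3, 13.5 and 9.13. The best hits of these genes were to fruit fly and to mouse.

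The lists of translation factors had medians near 0 at 24 h against 0 h. The 68 initiation factor genes had medians of 0.26 at 12 h, -0.01 at 24 h and -0.21 from 12 to 24 h, with 3 higher and 5 lower at 24 h. Their summed level was 112%, 96.0% and 82.9% of 0 h at 12, 24 and 48 h, when that of the ribosomal proteins was 112%, 56.8% and 46.8%. eIF5A-2 (TR80001|c2_g1) was at 686, 947, 757 and 561. An eIF4A-3 gene (TR86840|c0_g1), for an RNA helicase, was at 34.7, 16.9, 1.84 and 0.922, and an eIF3B gene (TR79525|c0_g1) at 0.477, 4.23, 12.5 and 0.724. The last 2 differed from 0 h in opposite directions at 24 h.

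The 20 elongation and release factor genes had medians of 0.40, 0.03 and -0.37 in the same 3 comparisons, with 3 higher and 3 lower at 24 h. Their summed level, in contrast to their median, was close to that of the ribosomal proteins, at 101%, 58.3% and 53.9% of 0 h. Without the EF1-alpha gene TR65377|c2_g1, the one with the highest level, it was 123%, 75.5% and 70.6%. EF1-alpha (TR65377|c2_g1), which carries the charged tRNA to the ribosome, was at 937, 604, 276 and 240.3, and EF1-gamma (TR62810|c1_g3) at 78.6, 65.1, 14.2 and 9.23. The release factor gene eRF1-1 (TR56459|c0_g1) was at 1.97, 5.93, 13.1 and 8.99. Among 55 tRNA ligase genes the medians were 0.18, -0.12 and -0.28, with 1 higher and 3 lower at 24 h. A glycine ligase gene named as mitochondrial (TR58610|c0_g2) was at 30.2, 34.6, 55.99 and 50.2. A threonine ligase gene (TR83258|c0_g3), with a best hit to a cyanobacterium, was at 78.7, 6.73, 16.5 and 8.98. A proline ligase gene (TR77774|c2_g4), with a best hit to the malaria parasite, was at 23.2, 16.7, 5.82 and 2.56.

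Proteins that bind the finished ribosome or carry a ribosomal part were nearer to the members by their median than the factors were. By summed level over all genes of each list, the elongation and release list was nearer at 24 and 48 h. Over 25 genes the median was -0.01 at 12 h, -0.66 at 24 h, with 8 lower and 3 higher, and -0.67 from 12 to 24 h, with 9 lower and 1 higher. The summed level was 101%, 76.8% and 62.9% of 0 h at 12, 24 and 48 h. Without its gene of highest level it was 102%, 68.8% and 74.5%. The elongation and release list without its own was at 75.5% at 24 h and 70.6% at 48 h. The order of these lists by summed level at 24 h thus rested on single genes. The 5 ubiquitin-S27a fusion genes summed to 717, 651, 508 and 502, and 3 of them were lower at 24 h. The 9 ubiquitin-L40 fusion genes summed to 817, 989, 611 and 786, with 3 lower and 2 higher at 24 h. One of them, TR81843|c5_g14, was at 89.1, 143, 282 and 529 and was chosen after its values were seen. The 3 genes of RACK1 type, a scaffold on the 40S head, summed to 149, 174, 88.3 and 96.2.

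The nascent polypeptide-associated complex shields new chains as they leave the tunnel. Its 5 alpha subunit genes summed to 434, 365, 257 and 235, with 2 lower and 0 higher at 24 h. The lower ones were the NACA4 genes TR79920|c0_g2, at 126, 57.6, 10.8 and 0.591, and TR25476|c0_g2, at 72.1, 46.8, 17.9 and 19.7. In contrast, TR74654|c1_g2 was at 126, 159, 132 and 122 and TR79920|c0_g3 at 109, 101, 95.7 and 91.8. A beta subunit gene (TR65641|c4_g9) was at 217, 207, 142 and 120. The genes outside NACA4 were chosen after their values were seen. The gene with the highest level in this list encoded a translationally controlled tumor protein homolog (TR13466|c2_g1), at 1582, 1567, 1401 and 722.

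The TOR and S6 kinase list had 17 genes, with medians of -0.25 at 12 h, 0.08 at 24 h and 0.67 from 12 to 24 h. At 24 h 4 were higher and 1 lower. The S6 kinase gene of AtPK2/AtPK19 type (TR23901|c0_g1) was at 12.8, 71.9, 139.7 and 79.3, so its highest value came at 24 h, when both S6 genes were under their 0 h level. A gene of Raptor type (TR85630|c5_g6), a partner of TOR, was at 3.11, 5.82, 10.5 and 10.9.

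Organelle-type ribosomal proteins serve the ribosomes of plastids and mitochondria. Their 102 genes had a median of -0.37 at 12 h, with 22 lower (21.6%, near the 17.7% of all genes) and 0 higher, when that of the cytosolic proteins was 0.15. At 24 h against 0 h the median was -0.67, with 36 lower (35.3%) and 0 higher, and from 12 to 24 h it was -0.37, with 6 lower and 3 higher. The plastid L28 gene (TR18966|c0_g3) was at 361, 174, 165 and 158, the plastid S20 gene (TR34705|c0_g2) at 85.2, 36.1, 18.8 and 20.7 and the plastid 30S protein 3 gene (TR48689|c0_g1) at 52.9, 6.23, 12.04 and 6.85. In these 3 genes the 12 h level was already under the 0 h level. Another 8 mitochondrial ribosomal protein genes, with names of other forms, had medians of 0.57 at 12 h, -0.27 at 24 h and -0.86 from 12 to 24 h. Of these, L41-A (TR74122|c2_g2), with a best hit to a frog, was at 42.02, 60.3, 29.4 and 24.6. L37 (TR67177|c0_g1), with a best hit to yeast, was at 26.9, 23.02, 18.5 and 16.6.

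**Figure D5:**
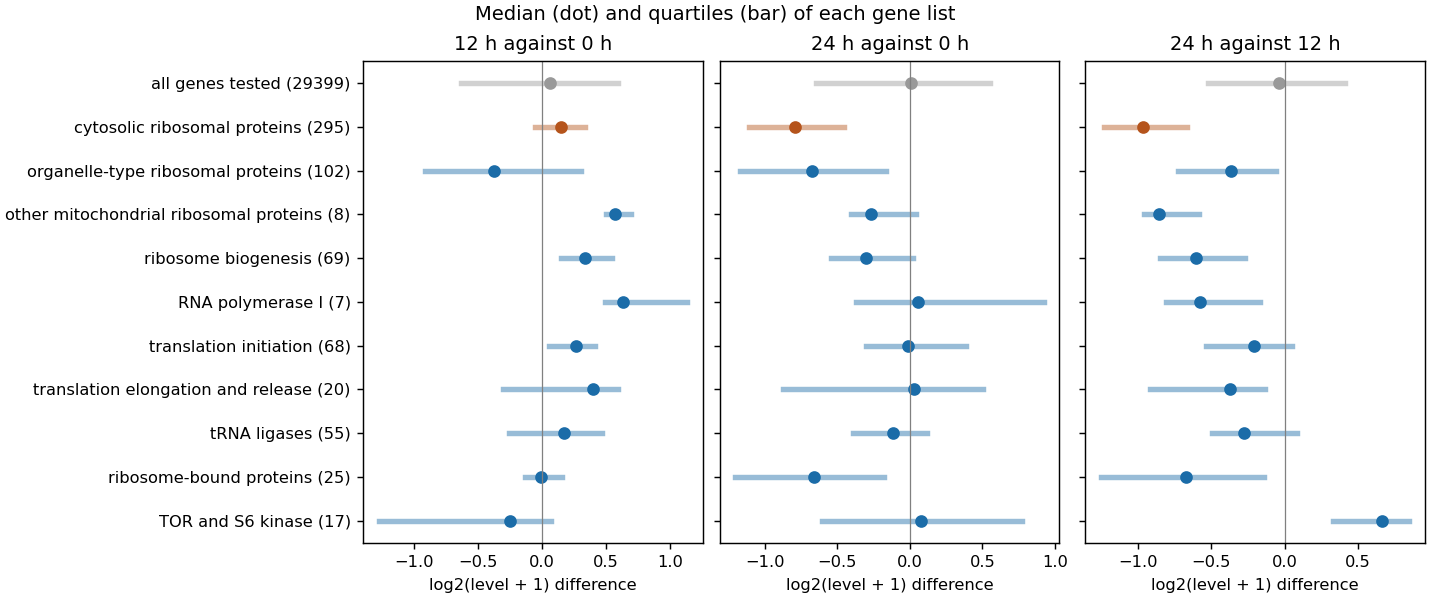
Dots are medians and bars the quartiles of log2(level + 1) differences (horizontal axis) for each gene list, with the number of genes in brackets, in panels for 12 h against 0 h, 24 h against 0 h and 24 h against 12 h. Cytosolic ribosomal proteins lie at 0.15, -0.79 and -0.97, and organelle-type ribosomal proteins at -0.37, -0.67 and -0.37.

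Markers of cell types were read beside these results. The 30 leaf mesophyll markers, genes of the photosystems and Rubisco, summed to 55965, 3751, 12286 and 14552, and 28 of 30 were lower at 12 h and at 24 h than at 0 h. None was listed at 0 at all 4 times and 4 were at 0 at 1 or more. Their sum was lowest at 12 h, when the deposited levels of the ribosomal proteins had their highest sum. The root and flower lists were built from names alone. The 9 genes with root names, led by ROOT HAIR DEFECTIVE 3 (TR59225|c2_g2), summed to 83.6, 94.5, 88.1 and 103. The 19 genes with flower names, led by the MADS-box gene AGL27 (TR85311|c3_g6), summed to 272, 240, 299 and 275. None of them was listed at 0 at any time, and whether they mark root or flower cells in this plant was not tested. Genes of dividing cells, which use many ribosomes, numbered 91 by the name pattern, with 28 lower and 10 higher at 24 h against 0 h and a median of -0.20. The pattern also caught 28 genes named cyclin-dependent, and without these the median was -0.63, and 25 of 63 were lower and 5 higher. Their sums were 2169, 2773, 2513 and 1981. The part of these cell types in the levels of the ribosomal proteins was not tested.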

How the data were processed

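The deposited table holds 1 expression signal per assembled gene and time, which the authors had averaged over replicates, since all values are whole multiples of 0.001 divided by 3, to within 3.33e-08. RSEM 1.2.19, Trimmomatic 0.33, FastQC 0.11.3 and CASAVA are listed in the submitters' processing notes, without their roles. The sources used here give neither the assembler nor the signal's unit nor any scaling for length. Without counts the depth behind each value, and so its precision, is unknown, and 1 mean per time allows neither a spread between replicates nor the planned tests.

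Members and lists were selected by the best Swiss-Prot description. They were chosen with earlier results of these data known, as were the role groups, the copies given for them and the 2-fold rule. Differences are log2(level + 1) with a pseudocount of 1, over 29399 genes that reached a level of 1. The scale understates differences of genes at low levels.

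Members are named by rank. They are the 10 with the highest mean level, the 5 with the largest difference each way against 0 h, and 3 each way between later times, at a level of 10 or more. All stalk genes at that level are added, with the extreme copies of the 3 names whose copies spread widest. In each list the gene with the highest level and the 2 with the largest difference are named. Alternatives were another pseudocount, minimum level, fold and scaling (equal column sums, median of ratios). Further ones were 1 gene per Swiss-Prot entry, that with the highest mean level, and levels summed by component or protein name. Only the 2-fold rule was checked on simulated data, with planted changes larger than 2-fold, which checks its arithmetic and not the other steps. The work was run in Python 3.11.15 with pandas 2.3.3, numpy 2.4.6 and matplotlib 3.10.9.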

Additional observations from a re-analysis of the deposited data

How the results depend on the processing

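Across the alternatives other than the 1.5-fold line, the members' median stayed between -0.94 and -0.75 at 24 h, between -1.15 and -0.97 at 48 h and between -1.02 and -0.93 from 12 to 24 h. From 24 to 48 h it lay between -0.29 and -0.15, the latter with median-of-ratios scaling, which also gave 0.03 at 12 h against 0 h. The percent lower ranged from 28.4% to 45.8% at 24 h, from 48.4% to 71.6% at 48 h and from 41.4% to 58.0% from 12 to 24 h. Of 164 recomputed values 128 kept their direction and stayed within 1.5-fold, which for a percentage is a ratio of 1.5 and for a median a shift by that fold in level. Among the others 1 changed sign, the median at 12 h against 0 h, which was -0.012 with equal column sums. The counts that moved were mostly small ones, and the cause was not tested. With a pseudocount of 0.1, the percent higher was 1.36% at 48 h, 1.69% from 12 to 24 h and 2.03% from 24 to 48 h, where 4.07% were lower. Among members at a level of 10 or more, 0.823% were lower at 12 h, 0.823% higher at 24 h, 0.412% higher at 48 h and 0% higher from 24 to 48 h. With equal column sums 2.37% were higher at 12 h and 0.339% at 48 h, and with median-of-ratios scaling 2.37% were higher at 12 h. With 1 gene per Swiss-Prot entry 0% were lower at 12 h, 0.741% higher at 24 h, 0% higher from 12 to 24 h, and 0% higher or lower from 24 to 48 h. Summed by component, 0.866% were higher at 24 h, 0.433% at 48 h and 0% from 24 to 48 h. Summed by protein name, 2.47% were higher and 0% lower at 12 h, 0% higher at 48 h and from 12 to 24 h, and 0% higher or lower from 24 to 48 h. The 1.5-fold line, chosen after seeing the data, gave 9.49% higher and 2.71% lower at 12 h, 3.39% and 68.1% at 24 h, 1.69% and 79.7% at 48 h, 1.69% and 78.3% from 12 to 24 h, and 1.36% and 6.78% from 24 to 48 h. The tally by scaling of names and the dividing-cell list without cyclin-dependent names were also chosen after seeing the data. No paired analysis was possible because the table holds no values per library, and for the same reason leaving out replicates was not run. Counts say nothing of the variation between plants.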

Other observations

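Copies that share an assembly component were set apart from other copies. In 23 components at least 2 members of 1 protein name reached a level of 10, 53 members in all. The spread of their log2 differences at 24 h against 0 h had a median of 0.39 and was under 1 in 21 of the 23 components. The exceptions were the L9 component TR13359|c0, at 2.41, and the L23 component TR40013|c0, at 1.78. No sequence of these copies was used here, so whether they are separate genes of the plant was not tested.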
